A study of Mus musculus with 10 samples.

Results

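The Hox genes and the long intergenic noncoding RNA Gm53 were followed in the frontonasal prominence (FNP), the embryonic tissue that gives rise to the forehead and the middle of the nose, with and without functional Smchd1. Members were chosen by name, as every row of the deposited count table named Hox, then a, b, c or d, then digits only, plus Gm53, which lies inside the Hoxb cluster. This gave 40 members, 39 Hox genes and Gm53, of 35542 genes in the table, and no filter on low counts was used to choose them. The FNP was taken at E10.5 from mice of the FVB/NJ inbred strain, and its RNA was sequenced in 6 Smchd1 WT/WT libraries (WT, labelled 3 male and 3 female) and 4 Smchd1 MD1/MD1 libraries (MD1, labelled 2 male and 2 female). MD1 stands for MommeD1, a loss-of-function allele found in a chemical mutagenesis screen, so these embryos carry the mutation in every tissue and not in the FNP alone. The labels do not say whether a library came from 1 embryo, and the spread that the p-values rest on may be technical in part. The question addressed was whether Hox genes, which are kept silent in this part of the head, and the RNA transcribed from among them differ when SMCHD1 is lost.

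Hox genes encode homeodomain transcription factors that give cells along the head-to-tail axis their positional identity. They lie in clusters, and their order along the chromosome mirrors the order of their expression along the body, with low-numbered paralogue groups active from the hindbrain backwards and high-numbered groups active in the trunk, tail and limbs. Neural crest cells that migrate into the FNP come from in front of the Hox-expressing hindbrain and do not normally express these genes, which Polycomb complexes hold silent. SMCHD1 is a non-canonical SMC protein that takes part in silencing of the inactive X chromosome and of clustered autosomal genes.

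Gm53 (ENSMUSG00000078706) lies on the plus strand at chr11:96251105-96264868 (GRCm38), 53.7 kb past the end of Hoxb13 and 6.59 kb before the start of Hoxb9. GENCODE release M21 gives it 4 transcript models and 4 merged exon blocks with a total length of 3980 bases, and none of its exon bases is shared with another gene. The stretch of 82 bases at chr11:96261612-96261693 lies in an exon of all 4 models. It is shown because every annotated form of Gm53 holds it, the only member that passed the filter on low counts and was called. It forms the start of exon 2 of model Gm53-201, chr11:96261612-96261763, 152 bases on the plus strand, with the shared bases in capitals.
Gm53 exon 2: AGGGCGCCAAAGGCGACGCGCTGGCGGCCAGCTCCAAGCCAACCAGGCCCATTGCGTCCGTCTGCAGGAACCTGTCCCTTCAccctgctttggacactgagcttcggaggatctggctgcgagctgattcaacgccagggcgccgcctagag

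The hairpin of Mir196a-1 (102 bases, chr11:96265164-96265265, plus strand) starts 296 bases past the end of Gm53 on the same strand, in the gap before Hoxb9. A second copy of the same microRNA, Mir196a-2, lies between Hoxc10 and Hoxc9, and Mir196b lies within the span of Hoxa9. MicroRNAs of this family are known to repress Hox messenger RNAs. Their mature forms (RefSeq, GRCm38.p6) are shown to place Gm53 beside its nearest annotated neighbour, with the seed, bases 2 to 8, in capitals, and the seed is the same in both. They were not analysed here.
mmu-miR-196a-5p: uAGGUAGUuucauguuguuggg
mmu-miR-196b-5p: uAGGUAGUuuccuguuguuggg

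The promoter windows of Hoxb8 and Hoxb4, 250 bases before to 50 bases after the start, are shown because Hoxb8 had the lowest p of any Hox gene and Hoxb4 the most reads of any in a single WT library. They are at chr11:96281655-96281954 and chr11:96318017-96318316, both on the plus strand (RefSeq, GRCm38.p6), with CG dinucleotides, the bases at which DNA is methylated, in capitals.
Hoxb8 promoter: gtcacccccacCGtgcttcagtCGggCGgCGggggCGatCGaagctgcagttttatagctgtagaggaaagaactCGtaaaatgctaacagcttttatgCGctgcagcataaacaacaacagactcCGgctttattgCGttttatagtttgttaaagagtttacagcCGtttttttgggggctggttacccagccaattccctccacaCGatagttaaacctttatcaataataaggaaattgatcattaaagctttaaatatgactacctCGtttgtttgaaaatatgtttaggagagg
Hoxb4 promoter: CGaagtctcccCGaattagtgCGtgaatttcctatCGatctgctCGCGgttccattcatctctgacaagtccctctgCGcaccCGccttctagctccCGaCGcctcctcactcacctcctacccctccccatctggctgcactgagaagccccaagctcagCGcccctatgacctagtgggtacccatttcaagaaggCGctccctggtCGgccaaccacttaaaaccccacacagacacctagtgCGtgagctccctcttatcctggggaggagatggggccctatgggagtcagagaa

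The Hoxb8 window holds 13 CG dinucleotides and the Hoxb4 window 14. The 24 windows of this length matched to 22 Hox genes held a median of 14.5, from 4 in Hoxd4, Hoxa9 and one of the windows of Hoxd11 to 45 in Hoxa13, beside a median of 7 over 32851 windows of all genes. The letters TGATTNAT, the core of the site that Hox and Pbx proteins bind together, were searched on both strands, where N is any base. They were present in 3.22% of all windows and in 2 of the 24 Hox windows, those of Hoxa2 and Hoxd11, and neither gene had a read in any library.

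Smchd1 was checked first, since it is the mutated gene. Its level in CPM, the count scaled to a library of 1000000 counts after TMM scaling, ran from 229 to 265 in WT with a median of 247, and was 55.3, 99.8, 67.1 and 91.7 in MD1 replicates 1 to 4. All 4 MD1 libraries were below all WT libraries, with a log2 fold change of -1.65 ± 0.15 (SE) and an adjusted p of 0.000746 (edgeR quasi-likelihood test, Benjamini-Hochberg over 15452 autosomal genes). Depth ran from 4195119 counts in MD1 male replicate 3 to 24125084 in WT male replicate 3. The library labelled female MD1 replicate 1 went against its sex label. Its Y-linked Ddx3y was at 88.1 CPM, against 0 in every other library labelled female and 78.1 to 96.0 in the libraries labelled male. Its Xist, the RNA of the inactive X, was at 203 CPM against 2592 to 2692 in WT females. It therefore stands as the library labelled female MD1 replicate 1 throughout, and the 2 MD1 libraries labelled female are grouped by label only. All 14 markers of facial mesenchyme and nasal ectoderm passed the filter on low counts, and their summed level was 1518 to 1912 CPM in WT and 1334 to 1707 CPM in MD1.

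Gm53 rose in MD1 and was the only member called, being also the only member that passed the filter on low counts. In WT its level ran from 0.95 to 2.29 CPM with a median of 1.84, from 13 to 50 reads per library. In MD1 it was 6.93 CPM in the library labelled female MD1 replicate 1 (146 reads), 6.78 in male replicate 2 (68 reads), 7.73 in male replicate 3 (32 reads) and 5.08 in female replicate 4 (67 reads). The genotypes did not overlap, and the lowest MD1 library was more than 2 CPM above the highest WT library. Such a separation, with all MD1 libraries above all WT libraries, occurred in 0.984% of the 15452 genes tested. Group means were 1.73 ± 0.52 CPM (SD, n = 6) for WT and 6.63 ± 1.11 CPM (SD, n = 4) for MD1. In bulk tissue, more cells of a type and more RNA per cell cannot be told apart. The log2 fold change was 1.91 ± 0.25 (SE), with an adjusted p of 0.0121 by the edgeR quasi-likelihood test. That test called 12 genes in all, 0.0777% of those tested, of which 11, 0.0712%, were higher in MD1 and 1, 0.00647%, was lower. Since Gm53 was picked with this result known, the p is given as a description.

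Gm53 was a low-abundance transcript in both genotypes. In RPKM, which scales reads by exon length and by depth, it stood at 0.435 in WT and 1.67 in MD1. Leaving out both MD1 libraries labelled female gave a log2 fold change of 2.04 with an adjusted p of 0.0445 in edgeR, so the difference was as large in the remaining pair of MD1 libraries. The call depended on single libraries: without the library labelled female MD1 replicate 1 the adjusted p was 0.0907 at a log2 fold change of 1.88, and without WT male replicate 2 it was 0.0558 at 1.89. A limma test on the deposited log2 RPKM gave 1.91 with an adjusted p of 0.0908.

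**Figure D1:**
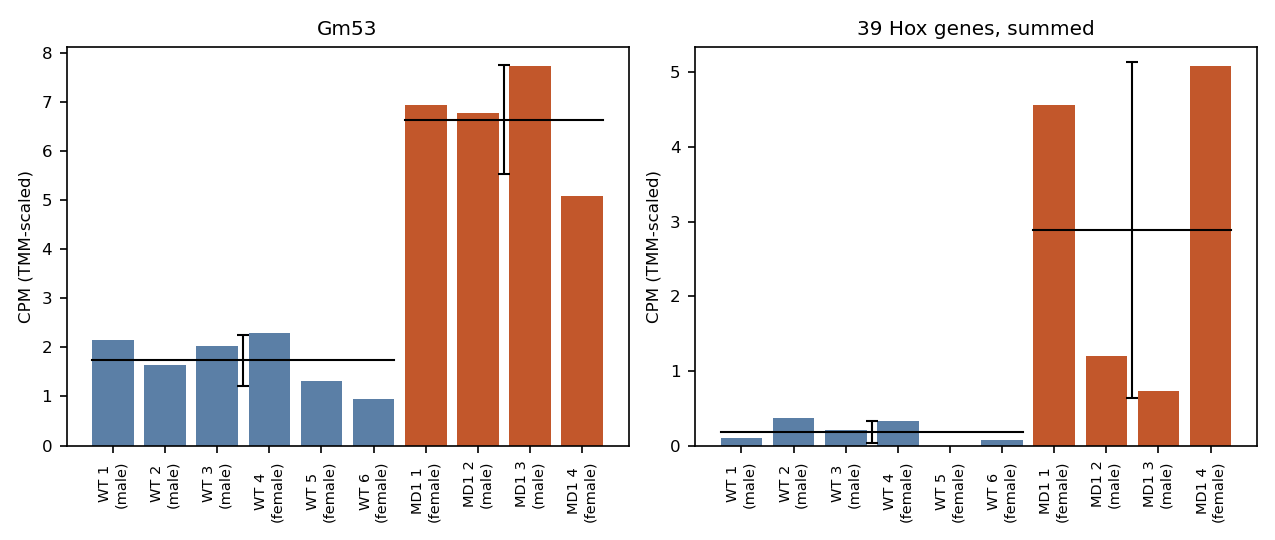
Level of Gm53 (left) and summed level of the 39 Hox genes (right) in each library, in TMM-scaled CPM. Blue bars are WT and orange bars MD1, with the labelled sex in brackets, and lines and whiskers give the group mean and SD; Gm53 lies between 5.08 and 7.73 CPM in MD1 and at or below 2.29 CPM in WT, while the Hox sum is high in the 2 MD1 libraries labelled female.

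The protein-coding Hox genes were close to silent. In all, 199 reads fell on the 39 genes in the 10 libraries, 21 in WT and 178 in MD1. No Hox gene passed the filter on low counts, so none was tested in the main comparison. Summed over the 39 genes, the level ran from 0 to 0.366 CPM in WT with a median of 0.155. In MD1 it was 4.56 in the library labelled female MD1 replicate 1, 1.2 in male replicate 2, 0.724 in male replicate 3 and 5.08 in female replicate 4. The libraries of the genotypes did not overlap, though the value in male replicate 3 rests on 3 reads. Averaged over libraries this was 0.180 ± 0.146 CPM (SD, n = 6) for WT and 2.89 ± 2.25 CPM (SD, n = 4) for MD1, a log2 difference of 4.01. Counting error alone puts the share of Hox reads in the library labelled female MD1 replicate 1 between 3.81 and 5.67 CPM of the unscaled total (95% Wilson interval) and that in MD1 male replicate 3 between 0.243 and 2.10.

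The 2 MD1 libraries labelled female carried most of these reads. They held 163 of the 199 Hox reads, 81.9%, and 23.8% of all counts. One of them, MD1 female replicate 4, stood apart over all genes: its chi-square per degree of freedom against the other libraries was 48.3 to 158.5, against 4.15 to 20.01 between the remaining libraries. Its Xist was at 6711 CPM, above the 2592 to 2692 CPM of WT females. The pooled rate in MD1, again of unscaled totals, was 3.63 CPM against 0.216 CPM in WT, a ratio of 16.8 with an exact 95% interval of 10.7 to 27.8. In the 2 MD1 libraries labelled male it was 1.06 CPM, from 15 reads, a ratio to WT of 4.89 with an interval of 2.35 to 9.95. Of these 15 reads, 12 came from Hoxb9, 2 from Hoxb3 and 1 from Hoxb8. Without Hoxb9 the ratio in the male-labelled libraries was 1.71, and its interval of 0.310 to 6.34 includes no difference. The log2 difference of group means was 3.59 without MD1 female replicate 4, and 2.42 without both libraries labelled MD1 female. These intervals cover counting error only, not the spread between embryos.

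Hox genes were detected, with at least 1 read, in larger number in the same 2 libraries. The library labelled female MD1 replicate 1 had reads in 19 of the 39 genes and MD1 female replicate 4 in 13, while MD1 male replicates 2 and 3 each had reads in 2 and the WT libraries in 0 to 3. These 2 libraries stayed ahead at equal depth. Thinned to the 4195119 counts of the shallowest library, the expected number was 9.98 and 9.41 genes in the MD1 libraries labelled female, 1.42 and 2 in those labelled male, and 0.962 or fewer in each WT library. With a minimum of 3 reads the MD1 libraries labelled female held 9 and 10 genes, MD1 male replicate 2 held 1 and male replicate 3 held 0.

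Over the whole set, 18 Hox genes had no read in any library. They were Hoxa2, Hoxa4, Hoxa5, Hoxa6, Hoxa7, Hoxa9 and Hoxa13, Hoxb1 and Hoxb13, Hoxc9, Hoxc10, Hoxc11, Hoxc12 and Hoxc13, and Hoxd3, Hoxd4, Hoxd11 and Hoxd12. A count of 0 allows up to 0.0309 CPM over the WT group and 0.0612 over the MD1 group (3 counts of each group's total). The other 21 genes all had a higher pooled rate in MD1, against 51% of the 7412 autosomal genes that had reads and failed the filter. Of the 21, 15 had reads in MD1 libraries only and 0 in WT libraries only. Reads in MD1 only were found for 12.4% of the 7412 genes. In 18 of the 21, the MD1 reads came solely from the libraries labelled female.

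A fit without the filter tested these 21 genes among 22864. Of them, 12 were higher at an unadjusted p under 0.05, 57.1% of those tested, against 6.37% of the 7412 genes with reads that failed the filter, and 0 were lower. Over all 22864 genes of that fit, 6.37% were higher and 2.91% lower at this threshold. None of the 21 passed an adjusted p of 0.05 (edgeR quasi-likelihood test), which 0.0481% of all genes of the fit did, and the lowest was 0.406 for Hoxb8. Their median log2 fold change was 3.5, beside -0.0018 over all genes of that fit. Fitted fold changes of genes with no WT read depend on the prior count, so pooled ratios and bounds are given for single genes.

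**Figure D2:**
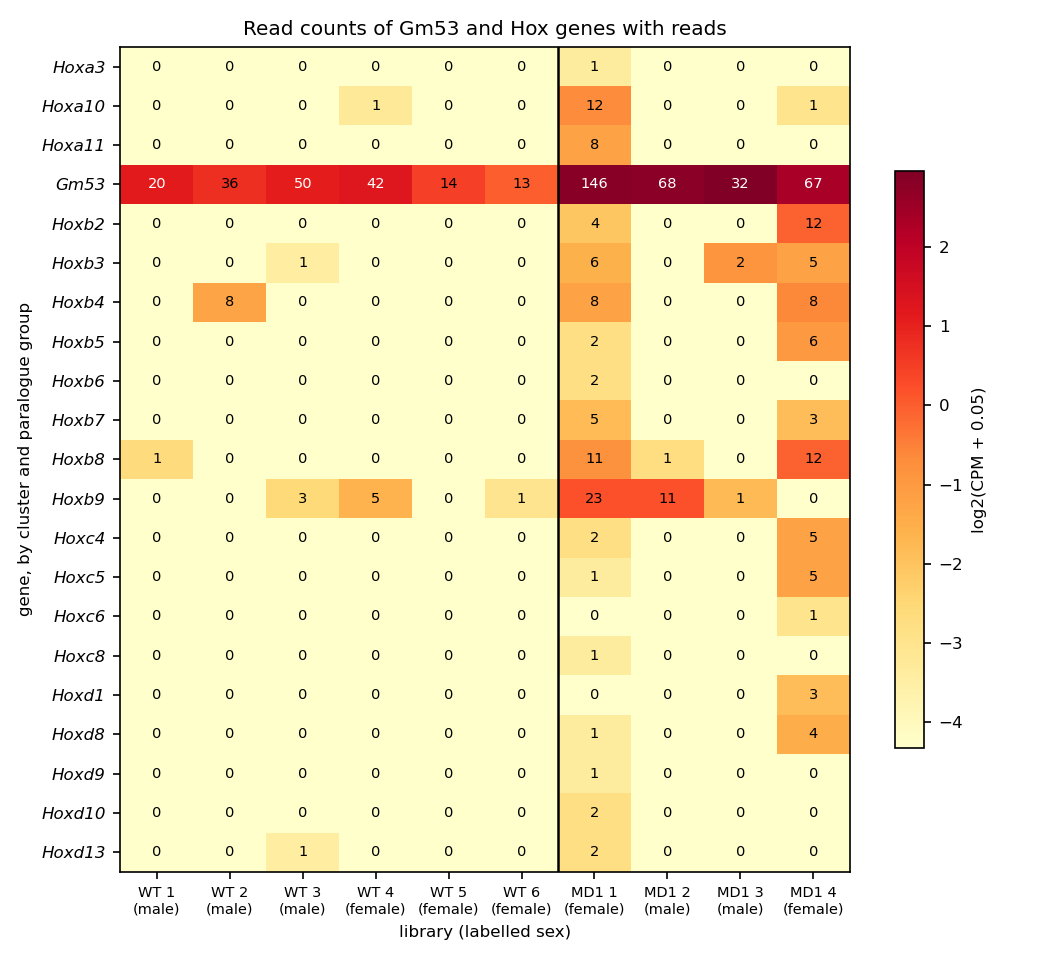
Read counts of Gm53 and of Hox genes with at least 1 read, 1 of the 21 not shown, one row per gene by cluster and paralogue group and one column per library, with the labelled sex in brackets. Numbers are raw counts and colours the log2 of CPM + 0.05; reads of Hoxa, Hoxc and Hoxd genes lie almost entirely in the MD1 libraries labelled female, while Gm53 has reads in all 10.

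The Hoxb cluster held 141 of the 199 Hox reads, and 8 of its 10 Hox genes had reads. Its summed level ran from 0 to 0.366 CPM in WT, and in MD1 was 2.90 in the library labelled female MD1 replicate 1, 1.2 in male replicate 2, 0.724 in male replicate 3 and 3.49 in female replicate 4. The genotypes did not overlap, though the value in male replicate 3 rests on 3 reads. The other clusters overlapped, with 0 reads in both MD1 libraries labelled male. A 0 count allows up to 0.300 CPM of the unscaled total in male replicate 2 and 0.715 CPM in male replicate 3. The Hoxb value in male replicate 3 is close to that limit, so Hoxb cannot be set apart there from the other clusters. Within the cluster, 6 of the 8 genes were higher at an unadjusted p under 0.05 in the fit without the filter, in which 6.37% of all genes were, and none of the 6 passed an adjusted p of 0.05 in edgeR.

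Hoxb9, the Hox gene nearest to Gm53 and one that patterns the thoracic region, had the highest level per length of any Hox gene, at 0.0303 RPKM in WT and 0.236 RPKM in MD1. It had 3, 5 and 1 reads in WT male replicate 3, WT female replicate 4 and WT female replicate 6, and 0 in the other WT libraries. In MD1 it had 23 reads in the library labelled female MD1 replicate 1, 11 in male replicate 2, 1 in male replicate 3 and 0 in female replicate 4. The genotypes overlapped. In CPM the library labelled female MD1 replicate 1 and MD1 male replicate 2 were close, at 1.09 and 1.10, and the other MD1 libraries were lower, at 0.241 and 0. The pooled ratio of MD1 to WT was 7.70 (exact 95% interval 3.63 to 18.2), with an unadjusted p of 0.0132 and an adjusted p of 0.511 (edgeR). In the MD1 libraries labelled male alone the ratio was 9.13 (3.53 to 24.5).

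Hoxb8, expressed in the trunk and in blood progenitors, had 11 reads in the library labelled female MD1 replicate 1, 1 in male replicate 2, 0 in male replicate 3 and 12 in female replicate 4, and 1 read in WT, in male replicate 1. The pooled ratio was 47.5, with an interval of 7.75 to 1955 that 1 WT read leaves wide. Its unadjusted p in edgeR was 0.00105. With a filter of 10 counts in 2 libraries of a group, Hoxb9 and Hoxb8 were the only Hox genes tested, with an adjusted p in edgeR of 0.475 and 0.385.

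Hoxb7 and Hoxb5, central genes of the cluster, were read in the MD1 libraries labelled female only, Hoxb7 with 5 and 3 reads and Hoxb5 with 2 and 6. For each, the observed pooled MD1 rate was 5.28 times the WT limit of 3 counts over the group. The exact interval of the MD1 to WT ratio started at 3.38 for both. Hoxb6 had 2 reads, both in the library labelled female MD1 replicate 1. Hoxb4 had 8 reads in each of the MD1 libraries labelled female and 0 in those labelled male, but also 8 reads in WT male replicate 2 and 0 in the other WT libraries, and its unadjusted p was 0.150.

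Hoxb3 and Hoxb2, anterior genes that pattern the hindbrain, had 6 and 4 reads in the library labelled female MD1 replicate 1 and 5 and 12 in MD1 female replicate 4. Hoxb3 also had 2 reads in MD1 male replicate 3 and 1 in WT male replicate 3. The observed pooled MD1 rate of Hoxb2 was 10.6 times the WT limit, and the exact interval of its ratio started at 7.64. Its unadjusted p in edgeR was 0.00534. Hoxb3 had a pooled ratio of 25.8 (3.87 to 1094) and an unadjusted p in edgeR of 0.00180. The antisense RNA Hoxb3os shares 52.9% of the exon bases of Hoxb3 and 27.3% of those of Hoxb2, and had 9, 0, 1 and 14 reads in MD1 replicates 1 to 4 and 0 in WT. Since the library kit does not mark strand, reads from these overlapping genes cannot be told apart. Hoxb1 and Hoxb13, at the 2 ends of the cluster, had 0 reads.

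The Hoxa cluster held 29 reads, 28 of them in the MD1 libraries labelled female. Hoxa10, which patterns the lumbar region, the limbs and the reproductive tract, had 12 reads in the library labelled female MD1 replicate 1, 1 in female replicate 4 and 1 in WT female replicate 4. Hoxa11, a gene of the middle limb segment and the uterus, had 8 reads, all in the library labelled female MD1 replicate 1, and shares 35.0% of its exon bases with the antisense Hoxa11os, which had 2. Hoxa3 had 1 read, in the same library. The unadjusted p was 0.00887 for Hoxa10 and 0.0217 for Hoxa11, each with an adjusted p of 0.511 in edgeR.

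The Hoxc cluster held 15 reads, none in WT and none in the MD1 libraries labelled male. Hoxc4 had 2 reads in the library labelled female MD1 replicate 1 and 5 in female replicate 4, and Hoxc5 had 1 and 5. Hoxc6 had 1 read, in female replicate 4, and Hoxc8 had 1, in the library labelled female MD1 replicate 1. These are genes of the neck and thorax. The observed pooled MD1 rate was 4.62 times the WT limit for Hoxc4 and 3.96 times for Hoxc5. The exact intervals of their ratios started at 2.86 and 2.33.

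The Hoxd cluster held 14 reads, 13 of them in the MD1 libraries labelled female. Hoxd8 had 1 and 4 reads, and its observed pooled MD1 rate was 3.30 times the WT limit. The exact interval of its ratio started at 1.82, and its unadjusted p in edgeR was 0.0210. Hoxd1 had 3 reads, all in MD1 female replicate 4. Hoxd9, Hoxd10 and Hoxd13, posterior genes that pattern limbs and genitalia, had 1, 2 and 2 reads in the library labelled female MD1 replicate 1, and Hoxd13 had 1 in WT male replicate 3. The pooled ratio of Hoxd13 was 3.96 with an interval of 0.206 to 234, so no difference was detectable at this depth.

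The 2 libraries rich in Hox reads differed in which paralogue groups they held. In the library labelled female MD1 replicate 1, posterior genes (groups 9 to 13) made up 48 of 96 Hox reads, 50% (95% Wilson interval 40.2 to 59.8), and anterior genes (groups 1 to 4) 26.0% (18.3 to 35.6). In MD1 female replicate 4, posterior genes made up 1 of 67 reads, 1.49% (0.264 to 7.98), anterior genes 52.2% (40.5 to 63.8) and central genes (groups 5 to 8) 46.3% (34.9 to 58.1). In MD1 male replicate 2, 11 of 12 Hox reads were posterior, all from Hoxb9. Of the genes with reads in either of the first 2 libraries, 11 were shared, 8 were read only in the library labelled female MD1 replicate 1, and Hoxc6 and Hoxd1 only in female replicate 4. No single paralogue group set apart all MD1 from all WT libraries.

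**Figure D3:**
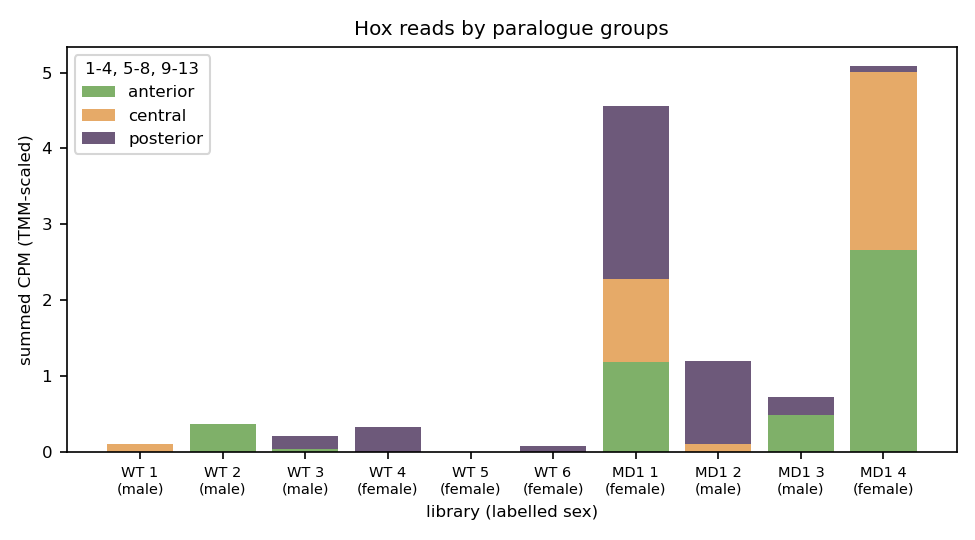
Summed TMM-scaled CPM of the 39 Hox genes in each library, stacked by anterior (groups 1 to 4), central (5 to 8) and posterior (9 to 13) paralogue groups, with the labelled sex in brackets. Posterior genes reach 2.28 CPM in the library labelled female MD1 replicate 1 and 0.0759 CPM in MD1 female replicate 4.

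Some lists of tissues outside the face were high in the MD1 libraries with most Hox reads, and their part in the result was not tested. The 8 genes of the yolk sac endoderm and liver list, which includes Afp and apolipoproteins, summed to 1.04 to 29.7 CPM in WT. In MD1 they summed to 356 in the library labelled female MD1 replicate 1 and 90.4 in female replicate 4, against 1.39 and 1.21 in male replicates 2 and 3. Among the MD1 libraries, those high on this list are the ones with most Hox reads. None of these 8 genes was at 0 in all libraries, and 3 of the 3 that could be tested were higher in MD1 at an unadjusted p under 0.05, with none past the adjusted threshold. WT male replicate 1 and WT female replicate 4 stood at 17.0 and 29.7 CPM on this list and held 1 and 6 Hox reads. Their Hox sums were 0.107 and 0.327 CPM. WT male replicates 2 and 3 stood at 1.79 and 2.64 CPM and held 8 and 5 Hox reads, with Hox sums of 0.366 and 0.203 CPM. All 8 reads of WT male replicate 2 were from Hoxb4.

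Other lists were high in MD1 female replicate 4. There the 8 erythroid genes, with embryonic globins, summed to 20648 CPM, against 2712 to 4381 in the other MD1 libraries and 3087 to 4475 in WT. The 6 genes of limb bud, body wall and mesothelium summed to 17.9 CPM there and to 4.23 in the library labelled female MD1 replicate 1, with 1.69 and 2.17 in those labelled male, against 0.644 to 2.48 in WT. In MD1 female replicate 4, Upk3b was at 9.11, Hand1 at 7.06 and Wt1 at 1.44 CPM, each above every WT library, while Tbx4 at 0.228 and Tbx5 at 0.0759 CPM were below the WT means of 0.780 and 0.488, and Tcf21 was at 0. The 7 hindbrain and spinal cord genes summed to 3.95 and 1.95 CPM in those 2 libraries and 0.199 and 0.966 CPM in the MD1 libraries labelled male, against 0.95 to 1.83 in WT, and Mnx1 and Lbx1 were at 0 in all libraries. The 9 somite and presomitic mesoderm genes summed to 37.0 CPM in MD1 female replicate 4. They summed to 19.7 to 21.5 in the other MD1 libraries and 17.2 to 24 in WT. Most of the 37.0 CPM was Tbx18 at 23.5 and Uncx at 8.73, while Meox1 at 1.82 and Myf5 at 0.228 were below their WT means. Msgn1 was at 0 everywhere. The 7 heart muscle genes summed to 3.42 CPM in MD1 female replicate 4. Their range was 0.241 to 0.797 CPM in the other MD1 libraries and 0.382 to 1.46 in WT. Most of the 3.42 CPM was Actc1 at 2.05 and Myh7 at 0.911, while Myl7 was at 0 there and Myl2 at 0 everywhere. In the library labelled female MD1 replicate 1, the erythroid, somite and heart sums lay within the WT range. Of the lists other than yolk sac, the erythroid and the endothelial had 2 genes each at an unadjusted p under 0.05, all higher, and 0 past the adjusted threshold. The 9 endothelial genes summed to 402 to 716 CPM in MD1 and 389 to 506 in WT. Pecam1 at 124 and Kdr at 256 CPM were above every WT library in MD1 female replicate 4, while Cldn5 at 12.7 CPM was below every one. The 6 leukocyte and macrophage genes summed to 22.0 to 24.4 CPM in MD1 and 22.2 to 29.5 in WT. A list of 8 genes of decidua and uterus, chosen after its values were seen, summed to 10.1 CPM in the library labelled female MD1 replicate 1. It summed to 2.17 to 3.99 in the other MD1 libraries and 1.51 to 2.19 in WT, with Prl3c1 and Wfdc15b at 0 everywhere. Pgr, at 1.51 to 2.19 CPM in WT, made up nearly all of the WT sums.

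MD1 male replicates 2 and 3 had the lowest yolk sac sums of their group, at 1.39 and 1.21 CPM, and Gm53 stood there at 6.78 and 7.73 CPM. The endothelial sum was 532 CPM in male replicate 3, above every WT library. The decidua sum of 3.99 CPM in male replicate 2 was also above every WT library. Of it, 3.49 CPM was Pgr, a gene read in every library, and Prl8a2, Gzmd, Gzme and Esr1 were at 0 there. Gm53 was lowest of the MD1 libraries in female replicate 4, at 5.08 CPM, where the erythroid and limb sums were highest. Whether these tissues have a part in the level of Gm53 was not tested.

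**Figure D4:**
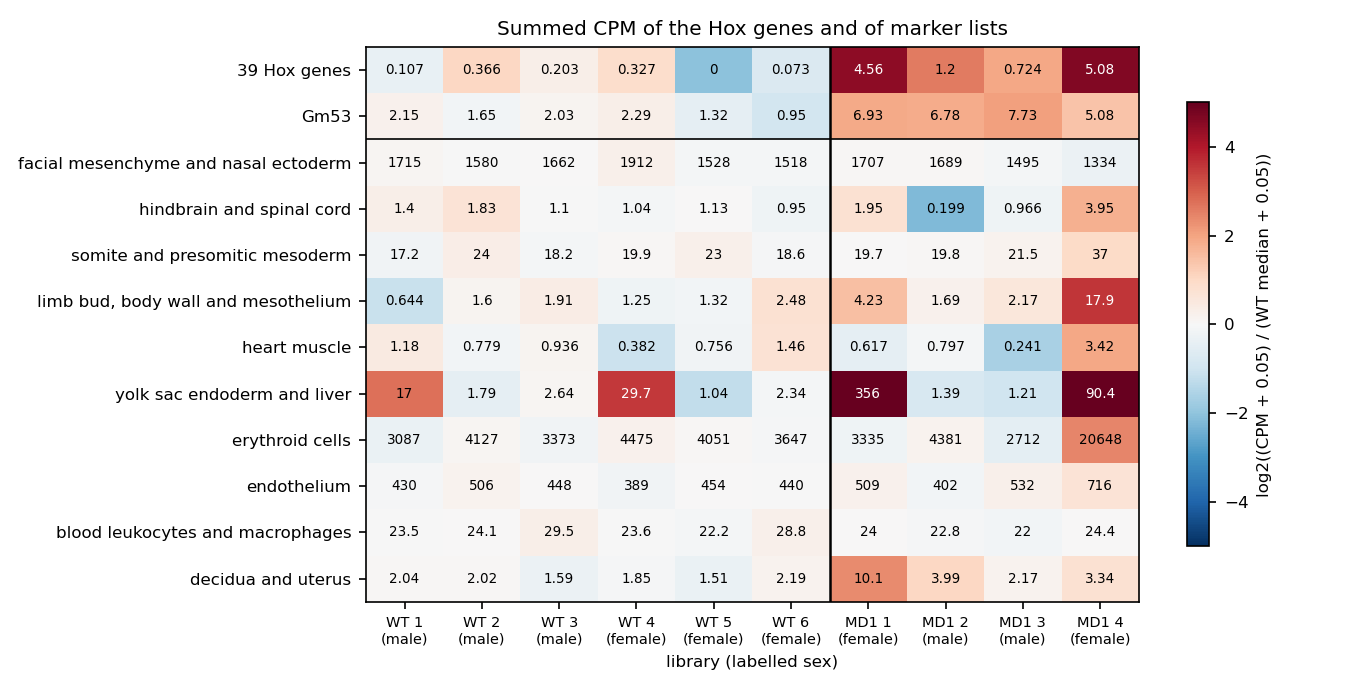
Summed TMM-scaled CPM of the 39 Hox genes, of Gm53 and of the lists of tissue markers in each library, printed in the cells, with colours giving the log2 ratio to the WT median after adding 0.05 CPM to both. The Hox sum and the yolk sac list are highest in the MD1 libraries labelled female, while Gm53 is at 5.08 CPM or more in all 4 MD1 libraries.

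Genes around the clusters were then compared to ask how far the difference at Gm53 extended. The 5 nearest protein-coding genes that passed the filter on each side of each cluster were taken, 40 genes in all. Of these, 22 were higher and 18 lower in MD1, with log2 fold changes from -0.99 to 0.56 and a median of 0.04, and none passed an adjusted p of 0.05 in edgeR, the lowest being 0.496. At an unadjusted p under 0.05 were 3 genes, all higher, beside 9.79% of all genes tested in either direction. They were Lnpk beside Hoxd (log2 fold change 0.27 ± 0.09, SE), the heterochromatin protein gene Cbx3 beside Hoxa (0.38 ± 0.10) and the splicing factor gene Hnrnpa1 beside Hoxc (0.40 ± 0.18).

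At the Hoxb cluster the nearest tested genes were Atp5g1, 119 kb away on the side of Hoxb13, at -0.30 ± 0.20, and Snx11, 399 kb away on the other side, at -0.23 ± 0.24. Next to the other clusters, the nearest on either side were Skap2 (0.27 ± 0.16) and Hibadh (0.26 ± 0.15) for Hoxa, Calcoco1 (0.17 ± 0.16) and Smug1 (0.07 ± 0.13) for Hoxc, and Lnpk and Mtx2 (0.10 ± 0.08) for Hoxd. None of these reached an adjusted p of 0.05. Inside the clusters the table holds 21 further rows, of which 15, among them Hotair, had no read. The other 6 had 1 to 24 reads in total, Hoxb3os the most, and Hoxb3os was the one with an unadjusted p under 0.05, at 0.00162 in the fit without the filter.

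**Figure D5:**
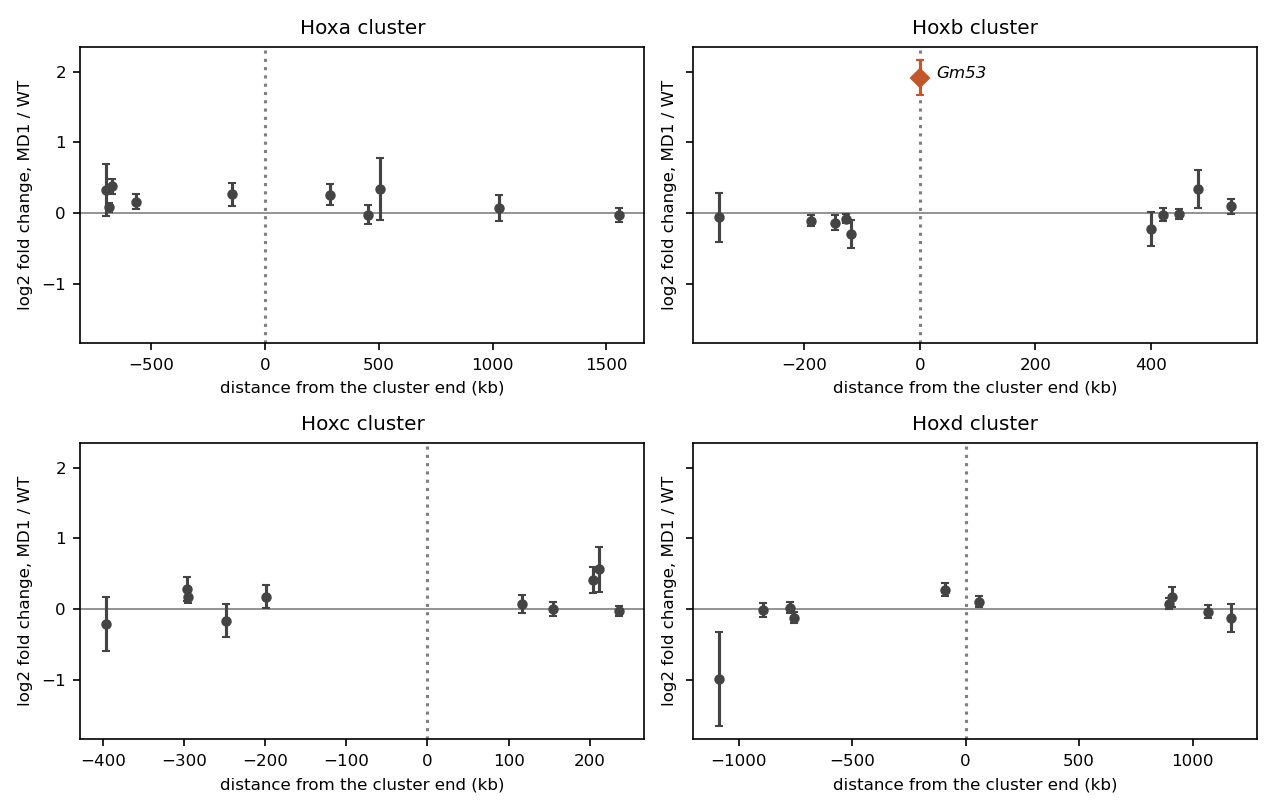
Log2 fold change of MD1 over WT with its standard error (edgeR) for the 5 tested protein-coding genes on each side of each Hox cluster, against the distance from the cluster end in kb, negative on the side of lower coordinates. Gm53, inside the Hoxb cluster, is drawn at 0 kb as a diamond at 1.91, and the flanking genes lie between -0.99 and 0.56.

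Partners of Hox proteins and regulators of Hox clusters were expressed and did not pass the test. The 9 TALE homeodomain cofactors, the Pbx, Meis and Pknox proteins that bind DNA with Hox proteins, summed to 763 to 861 CPM in WT and 692 to 799 in MD1. Their median log2 fold change was -0.10, beside 0.00 over all genes tested, and 0 of 9 were called in either direction. Pbx2 alone was at an unadjusted p under 0.05 (0.0494, log2 fold change -0.19 ± 0.09). Among 15 trithorax and Polycomb genes the median was 0.03 and 0 were called. Eed, a core subunit of the Polycomb complex that methylates histone H3, was at 0.24 ± 0.09 (unadjusted p = 0.0210), and Phc2, of the other Polycomb complex, at -0.26 ± 0.09 (unadjusted p = 0.0115), with an adjusted p of 0.496 for both in edgeR. Cbx8, also a Polycomb subunit and singled out after its values were seen, stood at 61.2 CPM in MD1 female replicate 4 and at 11.9 to 16.3 in the other 9 libraries.

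Of 8 homeobox relatives of the Hox genes, 2 passed the filter, Gsx2 (log2 fold change 0.03 ± 0.23) and Gsx1 (-0.58 ± 0.59), neither past an adjusted p of 0.05. Gbx2 averaged 0.484 ± 0.325 CPM (SD, n = 6) for WT and 0.195 ± 0.235 CPM (SD, n = 4) for MD1. Cdx2, which activates posterior Hox genes in the tail bud, Evx2 and Pdx1 had no read. Of 17 named noncoding RNAs of the clusters, 11 are in the table and none passed the filter. Halr1, a noncoding RNA of the Hoxa locus, had most reads, 4, 7, 6, 13, 5 and 1 in WT replicates 1 to 6 and 10, 11, 7 and 1 in MD1 replicates 1 to 4. Hoxb3os followed with the 24 reads given above, and Hotairm1 with 4. In CPM, Halr1 ran from 0.073 to 0.709 in WT and was 0.475, 1.10, 1.69 and 0.0759 in MD1 replicates 1 to 4. The 11 RNAs in the table summed to 0.146 to 0.709 CPM in WT and to 1.04 to 1.93 CPM in MD1. Hotair, Hottip, Hoxaas2, Hoxaas3 and Hoxd3os1 had no read in any library.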

How the data were processed

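Per the labels and the study's methods, the authors prepared unstranded TruSeq libraries, trimmed reads with Trim Galore 0.4.4, aligned them to GRCm38.p6 with HISAT2 2.0.5 and quantified genes in SeqMonk; the strand setting was not given in the sources used here. The deposited table of raw read counts was the main input. The authors also deposited log2 RPKM values made in SeqMonk, which entered 1 alternative. Of 35591 rows, 49 repeats of a gene were dropped, and 27 symbols that a spreadsheet had turned into dates were restored by gene identifier, which left 35542 genes. No pair of libraries agreed within sampling noise: chi-square per degree of freedom over 45 pairs ran from 4.15 to 158.5, and was 48.3 or more in every pair with MD1 female replicate 4.

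Counts were tested in edgeR 4.0.16 (R 4.3.3) with filterByExpr, TMM scaling and the quasi-likelihood test of MD1 against WT without covariates, and p-values were adjusted by Benjamini-Hochberg over 15452 autosomal genes, with a threshold of 0.05. The scripts' tests were checked on simulated counts. A fit without the filter gave values to the remaining members. RPKM used merged exon lengths of GENCODE release M21, which matched all 40 members by position. Sums over members carry no p. Intervals (95% Wilson for shares, exact for ratios of pooled counts) and limits of a 0 count (3 counts) cover counting error only.

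The members, gene lists and marker lists were chosen with earlier results of these data known, and the decidua and uterus list after its values were seen. Genes named with values were members or rows inside a cluster at an unadjusted p under 0.05 or passing the filter, the 3 members of each cluster with the highest mean RPKM, the nearest tested neighbours and those at an unadjusted p under 0.05, and, of the lists, genes at an unadjusted p under 0.05 or otherwise the 3 with the highest mean CPM. One member that this rule names is not reported here and enters the sums and counts only. Alternatives covered scaling (RLE, total count), the filter, the test (DESeq2 1.42.0, limma 3.58.1 with voom, limma on log2 RPKM, the edgeR exact test), labelled sex, a replicate block, sex chromosomes, and leaving out libraries.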

Additional observations from a re-analysis of the deposited data

Results flagged for a closer look

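A check for single libraries that stand apart from the rest of their genotype was made in 30 groups of values, for members with at least 10 reads and for the sums by cluster and paralogue group, and 9 groups held such a library. A library was picked out where its gap to the nearest other library, over the range of the group, was above Dixon's 95% critical value. Chance alone picks about 1 in 20 groups, and in sparse counts a single library with reads among libraries at 0 is picked by construction.

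In WT, WT male replicate 2 held 0.3664 CPM of Hoxb4, from 8 reads, where the other WT libraries were at 0. The sum over the anterior groups in the same library was 0.3664 CPM, against at most 0.04068 CPM in the others. WT female replicate 4 held the only WT read of Hoxa10, 0.05455 CPM, and so the only one of the Hoxa cluster, 0.05455 CPM. WT male replicate 1 held the only WT read of Hoxb8, 0.1074 CPM, and of the central groups, 0.1074 CPM. WT male replicate 3 held the only WT read of Hoxb3, 0.04068 CPM, and, from Hoxd13, of the Hoxd cluster, 0.04068 CPM.

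Among MD1 libraries, Hoxa10 was at 0.5698 CPM in the library labelled female MD1 replicate 1, from 12 reads, where the other 3 were between 0 and 0.07589 CPM. The gap over the range was 0.867. That library also held the highest sums of the yolk sac list, 356 CPM, and of the decidua list, 10.1 CPM, and their part in this value was not tested.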

How the results depend on the processing

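The log2 fold change of Gm53 was positive under every alternative run, between 1.69 and 2.04 against 1.91 as reported. It stayed past the adjusted threshold in 18 of the 22 alternatives. It did not in limma on the deposited log2 RPKM (1.91, adjusted p = 0.0908), with the replicate block (1.69, adjusted p = 0.925 and unadjusted p = 0.000551 in edgeR), without WT replicate 2 (1.89, adjusted p = 0.0558) and without MD1 replicate 1 (1.88, adjusted p = 0.0907), and in these the number of members called was 0 in place of 1. Without each library in turn the fold change ran from 1.79 to 2.02 and the members called from 0 to 1. The number of autosomal genes called, 12 as reported, was 51 with DESeq2, 29 with the edgeR exact test, 4 with limma on log2 RPKM, 0 with the replicate block and 6 without both libraries labelled MD1 female, and ran from 4 (without WT replicate 2) to 13 (without MD1 replicate 4) when single libraries were left out. The cause was not tested. The replicate numbers did not pair the libraries: deviations of same-numbered WT and MD1 libraries correlated at 0.011, 0.052, 0.196 and -0.071 over 12182 genes.

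The log2 difference in the summed level of the Hox genes, 4.01, was 2.42 without both libraries labelled MD1 female and ran from 3.59 to 4.35 without each library in turn. It moved by less than the spread over the MD1 libraries under the remaining alternatives. Depth limits the single Hox genes: 6 of 39 had 10 or more reads over all 10 libraries, and the shallowest MD1 library had 3 Hox reads.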
